A study of Drosophila melanogaster with 24 samples.

Results

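The glutathione S transferase (GST) genes of Drosophila melanogaster were taken as the genes whose current symbol begins with GstD, GstE, GstO, GstS, GstT or GstZ, the delta, epsilon, omega, sigma, theta and zeta classes of the cytosolic enzymes. A probe set of the array was used only where its annotation gave exactly 1 gene symbol, and of several probe sets of a gene the one with the highest mean was taken. The rule found 34 genes among the 11981 genes with a probe set of their own: 11 delta, 13 epsilon, 3 omega, 1 sigma, 4 theta and 2 zeta genes. Of these, 31 reached a median Signal of 75 and were tested, while GstD4, GstD6 and GstE14 lay below it. GstE9 and GstO2 each had a second probe set, and GstE8 had none named to it alone here. The gene sepia (se), which is also an omega class enzyme, was not taken because of its symbol.

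GSTs join the tripeptide glutathione to reactive or foreign compounds, so that these become soluble and can be exported. In insects the delta and epsilon classes are large, lie in tandem gene clusters and are known for the detoxification of insecticides and plant toxins. The other classes are also found in mammals and include enzymes of intermediary metabolism. In the fly, the transcription factor encoded by cnc, with its partner maf-S and its inhibitor Keap1, is known to control many of these genes.

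The arrays measured whole flies of lines selected for locomotor reactivity, the time for which a fly was active just after a mechanical disturbance. The High (H) lines had been selected for high and the Low (L) lines for low reactivity, and the Control (C) lines were kept without selection from the same outbred base population, 2 replicate lines of each kind. The base population was started in 2 bottles, each of which was split into 3 for the H, L and C groups. Lines of the same number may therefore share a starting bottle, and the fits did not pair lines by number. At generation 25, RNA was taken from pools of virgin females and of virgin males, 3 to 7 days old, with 2 samples per line and sex, so that there were 24 arrays, 8 per group and 4 per group and sex.

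Values are the Signal of Affymetrix MAS5 on a linear scale, as scaled on each array by the authors. The trimmed mean Signal lay between 497 and 499 on all arrays, and the median Signal was 93.0 to 118 in females and 143 to 158 in males. Each of 11439 probe sets was fitted on log2(Signal) with limma, with 1 mean for each line in each sex, and p-values were adjusted over all of these by the Benjamini-Hochberg method. A contrast between groups or lines was called at an adjusted p under 0.05, and effects of line, sex and line by sex at an adjusted p under 0.001. The error in these tests is the spread between the 2 samples of a line and sex, so the p-values compare these 6 lines and do not hold the spread between lines of a group. In whole flies, fewer cells of a type and less RNA per cell cannot be told apart. Delta and epsilon genes resemble each other in sequence, and the specificity of their probes was not checked here.

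Between H and L, averaged over the sexes, 12 of the 31 GST genes (38.7%) were called, beside 15.7% of all probe sets tested. Of these, 10 were higher in H (GstD3, GstD7, GstD9, GstE1, GstE3, GstE4, GstE5, GstE7, GstE11 and GstO2) and GstT1 and GstZ1 were lower in H, beside 7.85% and 7.89% of all probe sets. On linear Signal these counts were 10 and 4, with GstT3 and GstT4 added. The estimate was above 0 for 7 of 9 delta, 11 of 12 epsilon and 3 of 3 omega genes, and for 0 of 4 theta genes. For the zeta class it was above 0 for 1 of 2 genes, with GstZ1 at -0.70 and GstZ2 at 0.11. On the log2 scale the median difference was 0.44 for the delta genes, 0.35 for the epsilon genes, 0.07 for the omega genes, -0.17 for the theta genes and -0.30 for the zeta genes, beside -0.01 for all probe sets. The medians of the delta, epsilon, theta and zeta classes had the same sign with log2(Signal + 50), quantile normalization and median centring. With log2(Signal + 50) the median of the delta genes fell to 0.28 and lay below that of the epsilon genes at 0.32.

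**Figure D1:**
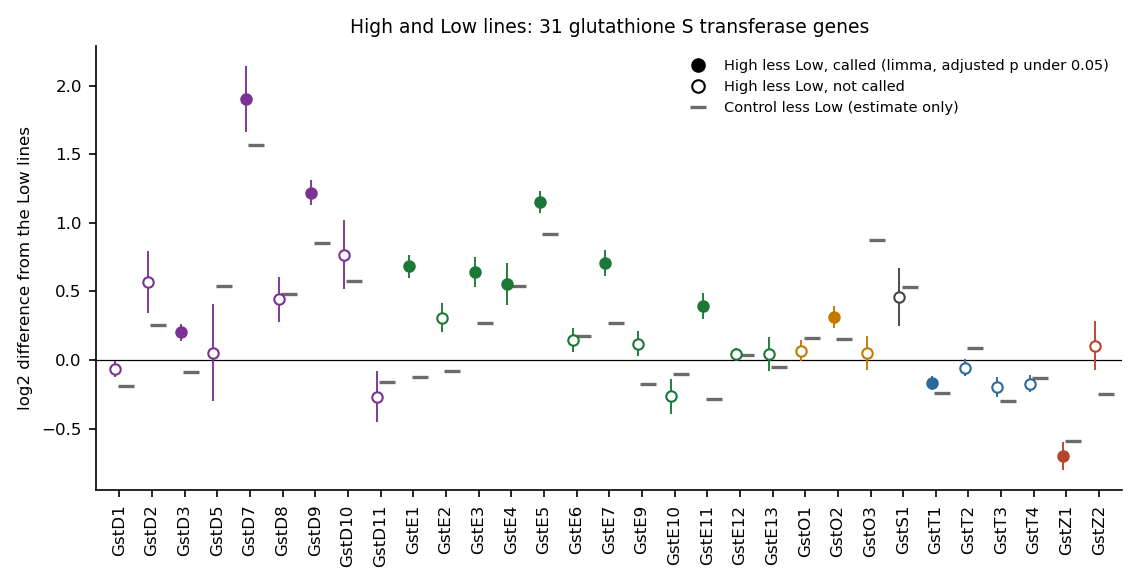
Points are the log2 difference of High and Low lines for each of the 31 GST genes, averaged over the sexes, with the SE of the limma fit over 24 arrays, coloured by class and filled where called. Grey bars are the estimate for Control less Low, and a reader should see points mostly above 0 in the delta and epsilon classes and below 0 in the theta class.

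Among the delta genes, which lie together on chromosome arm 3R, GstD7 had the largest difference between H and L of the 31 genes on the scale of log2(Signal). Its Signal in females was 166.6, 138.0, 278.7 and 147.0 in H, 117.2, 112.1, 122.7 and 171.9 in C, and 30.4, 43.7, 31.8 and 36.3 in L. In males it was 109.5, 128.6, 133.6 and 296.0 in H, 113.2, 140.9, 125.4 and 147.7 in C, and 126.6, 55.1, 21.9 and 58.3 in L. The L females lay below all other females, and in males a single L array, of line 1, reached the range of H. On the log2 scale H exceeded L by 1.90 (SE 0.24, limma, adjusted p = 0.000107), which is 3.74-fold. Most L values lay below the filter value of 75, where Signal is least precise. GstD7 thus passed the filter through H and C, and the size of its difference is uncertain. The difference was 1.57 to 2.24 with any array or line left out, and with log2(Signal + 50) it was 1.16, next to 1.15 for GstD9.

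GstD9 was higher in H by 1.22 (SE 0.09, adjusted p = 8.13e-07), or 2.33-fold, but its lines did not fall evenly. In females, H line 1 gave 682.6 and 855.7 and H line 2 gave 1204.5 and 1384.5, while L line 1 gave 806.4 and 948.6 and L line 2 gave 514.8 and 366.9. H line 1 and L line 1 overlapped in females, and line 2 of each group lay apart. In males, the H arrays gave 1127.6, 1243.9, 2629.7 and 3243.8, all above the L arrays at 713.4, 913.6, 369.2 and 387.7. The C arrays gave 753.7 to 945.2 in females, within the ranges of both H and L, and 1037.0 to 1812.0 in males. Between the lines, the log2 difference of line 1 less line 2 was -1.03 in H (adjusted p = 0.000397) and 1.05 in L (adjusted p = 0.000519). Without line 2 of either group the difference of H and L was smaller, and over all arrays and lines left out in turn it ranged from 0.69 to 1.75.

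GstD3, the next delta gene called, had a difference of 0.20 (SE 0.06, adjusted p = 0.0437). Its Signal had a lowest, median and highest value of 684.7, 975.95 and 1581.4 in H, of 577.6, 740.55 and 1340.4 in C and of 734.5, 882.6 and 1039.6 in L, so that the groups overlapped. The call was lost when any of 18 of the 24 arrays was left out and without L line 2 or C line 1, and without H line 2 the sign turned (-0.13, adjusted p = 0.320). GstD2, GstD8 and GstD10 had estimates of 0.57, 0.44 and 0.77 with adjusted p-values of 0.106, 0.0795 and 0.0526, and did not pass. GstD1, whose enzyme is known to degrade DDT, had an estimate of -0.07 (SE 0.06, adjusted p = 0.472). Its call between H and L appeared only without H line 1 (-0.29, adjusted p = 0.0224), and without H line 2 the estimate was 0.16. GstD5 (0.05, SE 0.35) and GstD11 (-0.27, SE 0.19) did not pass either, and the estimate for GstD5 changed sign with the scale of the Signal.

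Among the epsilon genes, GstE10, GstE1, GstE2, GstE3, GstE4, GstE5, GstE6, GstE7, GstE8 and GstE9 follow each other on arm 2R. This run holds 5 of the 6 epsilon genes called between H and L. It also holds all epsilon genes tested other than GstE11, GstE12 and GstE13. GstE5 had the smallest adjusted p of the family. Its Signal in females was 728.5, 763.2, 671.2 and 738.3 in H, 666.7, 670.6, 480.9 and 619.1 in C, and 265.6, 270.8, 363.2 and 329.9 in L. In males it was 811.3, 796.1, 883.1 and 1183.2 in H, 909.8, 794.6, 661.3 and 791.9 in C, and 361.0, 353.4, 472.3 and 601.0 in L. Every H array and every C array lay above every L array of its sex. H exceeded L by 1.15 (SE 0.08, adjusted p = 3.67e-07), or 2.22-fold, and 0.92 to 1.39 with any array or line left out.

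GstE7 showed the same separation of H from L in both sexes. The H females gave 1480.2, 1447.2, 1442.3 and 1731.1 and the L females 830.1, 902.1, 1095.8 and 1014.7, while the H males gave 1573.3, 2426.3, 1653.8 and 2141.0 and the L males 1227.6, 989.3, 1308.0 and 1085.2. No H array overlapped an L array of its sex. H exceeded L by 0.71 (SE 0.09, adjusted p = 0.000167), or 1.63-fold. GstE3, which lies between GstE2 and GstE4, gave 3228.5, 3136.1, 2439.0 and 3194.4 in H females and 1757.9, 1578.9, 1702.0 and 1826.1 in L females, which did not overlap. In males its H values (3563.7, 5447.0, 3693.9 and 5935.4) and L values (3727.6, 3182.8, 3268.7 and 2875.2) overlapped at their edges. GstE3 was higher in H by 0.64 (SE 0.11, adjusted p = 0.00136), or 1.56-fold.

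GstE1 and GstE11 were called higher in H than in both other groups when averaged over the sexes, as were GstD3, GstD9, GstE3 and GstE7. GstE1 gave 2140.5, 2224.6, 1516.3 and 1672.6 in H males, against 1248.9, 943.0, 804.5 and 1008.0 in C and 918.6, 956.0, 1016.7 and 1005.0 in L. The H males lay above all other males, with H line 1 above H line 2, while in females H (1672.4 to 3205.0) and L (1466.8 to 1811.7) overlapped. Averaged over the sexes, GstE1 was higher in H than in L by 0.68 (SE 0.08, adjusted p = 7.76e-05), or 1.61-fold. GstE11, which lies outside the run on 2R, had an estimate of 0.39 (SE 0.10, adjusted p = 0.0119) and lost its call without H line 2 (adjusted p = 0.0539) or L line 1 (adjusted p = 0.262). Its H males (722.0 to 910.0) lay above all L males (388.1 to 675.6). In females H (774.5 to 997.3) and L (675.5 to 940.7) overlapped, with a difference of 0.14 (limma, adjusted p = 0.507). GstE11 also had every H array above every C array of its sex, as for 0.708% of all probe sets.

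GstE4 was called at 0.55 (SE 0.15, adjusted p = 0.0240), or 1.47-fold. Its Signal was 262.1, 419.35 and 481.9 (lowest, median and highest) in H and 187.8, 247.9 and 438.0 in L, so that the groups overlapped. The call was lost without any of 4 arrays (H line 1 female replicate 2, H line 1 male replicate 1, L line 1 male replicate 1 and L line 2 female replicate 2) and without H line 1, H line 2 or L line 1. GstE2, whose counterpart in Anopheles mosquitoes is known to break down DDT, had an estimate of 0.31 (SE 0.11, adjusted p = 0.0620). Its lowest, median and highest values were 290.5, 445.3 and 562.7 in H and 224.0, 336.25 and 517.2 in L. The 5 other epsilon genes tested, GstE6, GstE9, GstE10, GstE12 and GstE13, had estimates between -0.27 and 0.14, and none passed.

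**Figure D2:**
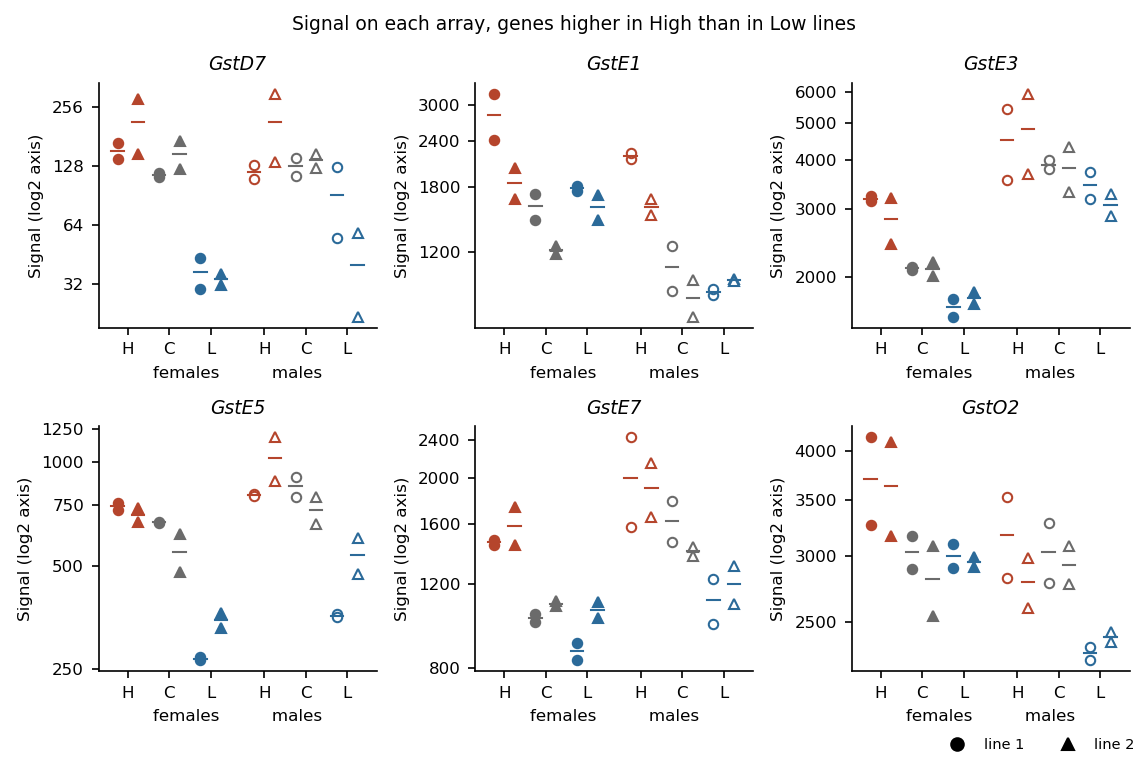
Signal on each of the 24 arrays, on a log2 axis, for 6 genes called higher in H than in L. Each point is 1 array, colours give the group (H red, C grey, L blue), filled points are females and open points males, circles are line 1 and triangles line 2, and short lines are the mean of the 2 samples of a line and sex. GstE5, GstE7 and GstO2 have no H array within the range of L in either sex.

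Of the omega genes, which are neighbours on arm 3L together with se, GstO2 was higher in H. Its Signal was 3264.3, 4154.6, 3165.5 and 4101.7 in H females and 3101.5, 2899.0, 2989.9 and 2903.9 in L females. In males it was 2823.1, 3525.1, 2599.7 and 2979.6 in H and 2332.9, 2250.6, 2367.6 and 2432.0 in L. The groups did not overlap in either sex. The difference was 0.32 (SE 0.08, adjusted p = 0.0156), or 1.24-fold, and lost its call without H line 1, L line 1 or L line 2. The second GstO2 probe set gave a larger difference of 0.56 (SE 0.09, adjusted p = 0.000536) and also had every H array above every L array of its sex.

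The sigma gene GstS1, whose protein is abundant in flight muscle and acts on products of lipid peroxidation, varied widely between replicate samples. In females it gave 10868.5, 6233.8, 12557.6 and 4323.0 in H and 5033.9, 7630.6, 2992.1 and 4267.9 in L, with C at 9127.4, 11387.0, 8799.7 and 9267.9. The H females spanned most of the range of all groups, and the H and L arrays overlapped. GstS1 had an estimate of 0.46 (SE 0.21, adjusted p = 0.164), which became a call (0.65, adjusted p = 0.0229) without the array of H line 2 female replicate 2. That array had the lowest summed Signal of 6 flight muscle genes among H females, 35503 against 86063 in the other female sample of its line. Over all females this sum ranged from 35503 to 86063 in H, from 62603 to 78174 in C and from 26899 to 69651 in L, and the L female array with the lowest sum was also the lowest for GstS1. The part of these muscle genes in the GstS1 values was not tested.

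The theta genes lay on the other side of 0. GstT1 and GstT2 are neighbours on 2R, and GstT3 and GstT4 lie on X. GstT1 gave 1569.4, 1583.1, 1393.4 and 1544.0 in H females, 1321.7, 1289.9, 1459.3 and 1332.9 in C females and 1729.6, 1590.9, 1899.0 and 1916.3 in L females. All L females lay above all other females, and in males H (1016.7 to 1141.1) and L (1014.1 to 1245.6) overlapped. GstT1 had a difference of -0.17 (SE 0.05, adjusted p = 0.0288), a 1.12-fold decrease in H. This call was lost without any of 9 of the 24 arrays and without H line 2 (adjusted p = 0.235) or L line 2 (adjusted p = 0.579). GstT2, GstT3 and GstT4 had estimates of -0.05, -0.20 and -0.17 and did not pass.

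GstZ1, a zeta class gene whose class acts as an isomerase in the breakdown of tyrosine, was the only gene called lower in H apart from GstT1. The H females gave 351.0, 387.6, 155.5 and 178.4, below the L females at 431.0, 473.2, 516.8 and 492.3. In males, H line 1 (231.5 and 206.7) lay within the range of L (160.1 to 240.7), and H line 2 (87.7 and 124.2) lay below it. The difference was -0.70 (SE 0.10, adjusted p = 0.000360), a 1.62-fold decrease in H, and it was -0.14 (adjusted p = 0.451) without H line 2. Its neighbour GstZ2 had an estimate of 0.11 (SE 0.18, adjusted p = 0.745).

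The 3 genes below the filter were not part of these counts. GstD4 lay between 2.9 and 79.0 and GstD6 between 1.4 and 34.6 on all arrays, and for both genes the H and L arrays overlapped in each sex. GstE14, whose enzyme is needed for ecdysteroid hormone synthesis, was different. In females it gave 24.2, 19.6, 8.4 and 28.1 in H, 71.4, 72.4, 114.3 and 158.8 in C, and 100.4, 123.1, 85.5 and 65.5 in L. All H females lay below all other females. In males the Signal was 6.9 to 23.0 in H, 11.8 to 55.2 in C and 12.9 to 53.8 in L, with overlap. When all 18769 probe sets were fitted without the filter, GstE14 was lower in H than in L by -1.80 (SE 0.34, adjusted p = 0.00466) and lower in H than in C by -1.67 (SE 0.34, adjusted p = 0.0117), where 7.12% and 4.68% of probe sets were called. At these levels Signal is imprecise and the size of the difference is uncertain, and this gene was singled out after its values were seen.

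Within females, 8 GST genes (25.8%) were called between H and L beside 14.5% of all probe sets, 6 of them higher (beside 6.62%) and 2 lower (beside 7.9%) in H. Within males, 7 (22.6%) were called beside 5.57%, with 7 higher (beside 3.09%) and none lower (beside 2.48%), or 6 higher and 1 lower (GstT4) on linear Signal. GstD7, GstD9, GstE1, GstE5 and GstE7 were called in both sexes, all higher in H. GstE3, GstT1 and GstZ1 were called in females, and GstD3 and GstE11 in males. These lists do not show that the sexes differ, and a test of male less female effects called 1 gene, GstD9, beside 0.551% of all probe sets (0.376% with the larger effect in males). For GstD9 the difference was 0.69 (SE 0.13) in females and 1.75 (SE 0.13) in males, a gap of 1.06 (adjusted p = 0.0234). This call was lost when any of 4 arrays was left out (H line 1 male replicate 2, H line 2 female replicate 1, L line 1 male replicate 1 and L line 2 male replicate 2), without H line 2, L line 1 or L line 2, and with no filter. The female count was 5 without L line 2, and the male count was 4 without H line 1 male replicate 2 and 12 without H line 1. No GST gene had a line by sex interaction, beside 0.0437% of all probe sets, and 3 of 31 had an unadjusted p under 0.05 in limma, beside 15.8% of all probe sets.

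The separation of arrays was also counted. In females, H and L arrays did not overlap for 9 of 31 genes (29.0%), beside 13.5% of all probe sets, and in males for 6 (19.4%), beside 8.95%. H lay above L without overlap in both sexes for 3 genes, GstE5, GstE7 and GstO2 (9.68%, beside 1.44%), and for 0 genes it lay below in both sexes (beside 1.36%). Both H line means lay above both L line means in each sex for 8 genes, GstD7, GstE1, GstE2, GstE3, GstE4, GstE5, GstE7 and GstO2, beside 7.46% of all probe sets. The reverse held for GstT3, beside 7.46%.

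Summed levels of tissue marker genes lay apart between H and L arrays for some tissues and overlapped for others. For 12 ovary and egg shell genes the sum was 18314 to 53651 in H females, 23467 to 59093 in C females and 65237 to 94210 in L females, so that H and L did not overlap, and 1 of the 7 that were tested was called, lower in H. In males this sum was between 223 and 431 on all arrays. The sum of 5 Malpighian tubule genes was 4217 to 4663 in H females and 4689 to 4993 in L females, and 3053 to 3751 in H males and 3922 to 5437 in L males, with 1 of 5 called higher and 3 of 5 lower in H. The sum of 6 fat body genes was 33473 to 34588 in H females and 35946 to 40264 in L females and overlapped in males, with 2 of 5 called, both lower. The C females overlapped both H and L, at 4652 to 5451 for the Malpighian tubule sum and 32458 to 39321 for the fat body sum. Midgut sums (70627 to 95062 in H and 74374 to 95554 in L) overlapped, with 1 of 7 called higher and 2 of 7 lower. Testis sums in males (56454 to 62851 in H and 57963 to 62972 in L) also overlapped, with 0 of 10 called. Of the flight muscle genes, 0 of 6 were called. Among all probe sets tested, 15.7% were called between H and L. For single probe sets, H and L arrays did not overlap for 13.5% in females and 8.95% in males. The part of these tissues in the GST differences was not tested.

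The position of the C lines differed between genes. Against C, H was called for 8 genes (25.8%, beside 11.2% of all probe sets). Of these, 7 were higher in H (GstD3, GstD9, GstE1, GstE2, GstE3, GstE7 and GstE11, beside 4.36%) and GstO3 was lower (beside 6.82%). The count was 5 without C line 2 or without its male replicate 1. With each line left out in turn, GstE1 and GstE11 kept their call. Without H line 2 the estimate turned to -0.04 for GstD3 (adjusted p = 0.794), -0.15 for GstD9 (adjusted p = 0.478) and 0.21 for GstO3 (adjusted p = 0.348), and GstD3 also lost its call and its sign without C line 1 (adjusted p = 0.813). GstD9 lost its call without C line 1, GstE2 without H line 1 or C line 2 and GstE7 without C line 2, and GstE3 lost it without any of the lines other than H line 2. Against L, C was called for 9 genes (29.0%, beside 15.5%), with GstD7, GstD9, GstE4, GstE5 and GstO3 higher in C (beside 9.38%) and GstD1, GstT1, GstT3 and GstZ1 lower (beside 6.15%). With median centring the second comparison gave 5 higher and 7 lower, so its balance of directions depends on the scaling. GstD7, GstE5 and GstO3 kept their call with each line left out. For GstD1 the estimate turned to 0.08 without C line 2 (adjusted p = 0.526), and the call was also lost without L line 1 or L line 2. The calls of GstD9 and GstT1 were lost without L line 2, that of GstZ1 without C line 1, that of GstT3 without L line 1 or C line 1, and that of GstE4 without L line 1, C line 1 or C line 2. These comparisons share the C arrays, so their values are given side by side.

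For GstE5 the log2 difference was 0.24 between H and C (SE 0.08, adjusted p = 0.0720) and 0.92 between C and L (SE 0.08, adjusted p = 6.68e-06). GstD7 (0.33 and 1.57) and GstE4 (0.01 and 0.54) had the same order, with C nearer to H. GstE1 had the opposite order, with 0.81 between H and C (SE 0.08, adjusted p = 2.50e-05) and -0.13 between C and L (SE 0.08, adjusted p = 0.334). GstE11 was like GstE1, at 0.68 (adjusted p = 0.000388) and -0.29 (adjusted p = 0.0553). The group means of GstD9, GstE3 and GstE7 lay in the order H, C, L, with 0.37, 0.37 and 0.44 between H and C and 0.85, 0.27 and 0.27 between C and L, where GstE3 and GstE7 did not pass (adjusted p = 0.122 and 0.0717). Without H line 2 the estimate of H and C for GstD9 was -0.15 (adjusted p = 0.478), and C then lay above H. Over the family, the H mean was the highest of the 3 groups for 17 of 31 genes (54.8%, beside 29.2% of all probe sets) and for 10 of 12 epsilon genes. It was the lowest for 5 genes (16.1%, beside 36.4%). The order H, C, L held for 10 genes (beside 16.1% of all probe sets) and its reverse for 4 (beside 19.5%). The C mean was the highest for 7 genes (beside 35.4%) and the lowest for 10 (beside 29%).

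Differences among the 6 lines, whatever their group, were called for 8 GST genes (25.8%, beside 4.76% of all probe sets): GstD1, GstD3, GstD7, GstD9, GstE1, GstE5, GstO3 and GstZ1. The count was 5 without H line 1 and also 5 without H line 2. For GstD1, GstD3, GstO3 and GstZ1 the estimate between the 2 H lines was larger in size than that between H and L. Between the H lines 9 genes were called (29.0%, beside 5.36%), 4 higher in line 1 (beside 2.83%) and 5 higher in line 2 (beside 2.53%). On linear Signal these were 5 and 3, and with median centring 4 and 3. Between the C lines 4 were called (12.9%, beside 5.57%), 2 higher in line 1 (beside 2.4%) and 2 in line 2 (beside 3.16%), and the count was 2 without any of 4 C arrays (line 1 female replicates 1 and 2, line 2 female replicate 1 and line 2 male replicate 2). Between the L lines 2 were called (6.45%, beside 3.87%), 1 higher in line 1 (beside 2.09%) and 1 in line 2 (beside 1.78%). The L count was 1 without H line 1 and without any of 6 L arrays (line 1 female replicate 2, both line 1 males, both line 2 females and line 2 male replicate 2). The H lines differed for 5 of 9 delta genes and 2 of 12 epsilon genes.

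**Figure D3:**
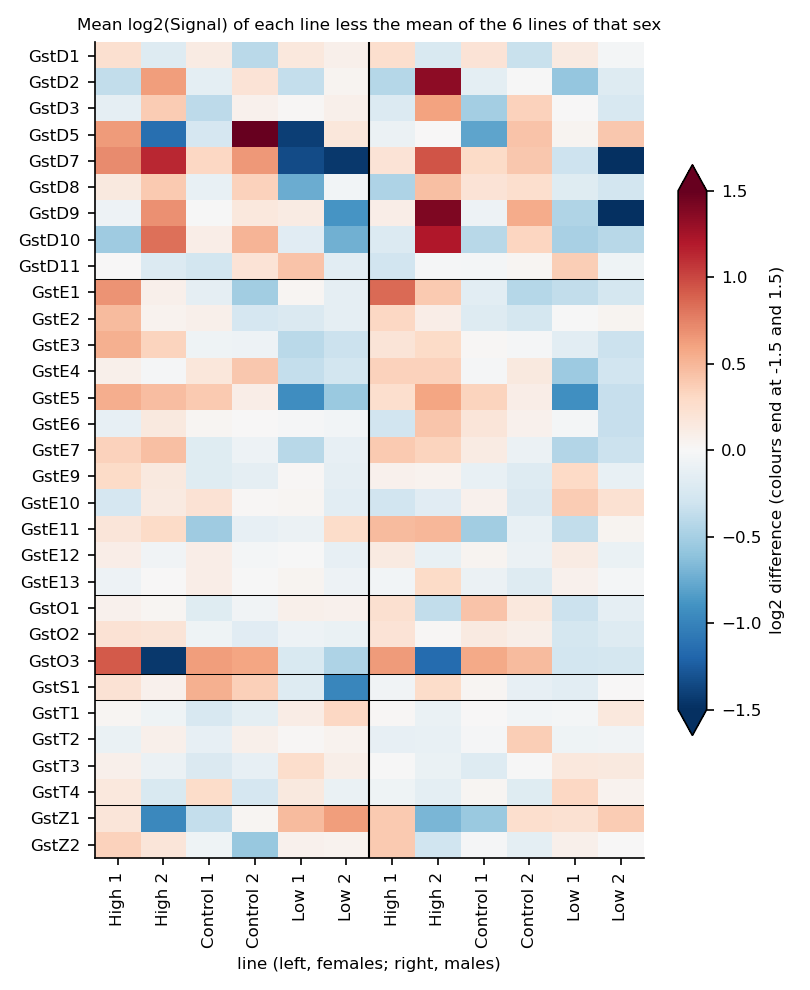
Mean log2(Signal) of each line (2 samples) less the mean of the 6 lines of that sex, for 31 GST genes in order of class, females on the left and males on the right. Red is higher and blue lower than the mean of the sex. GstE5 and GstE7 go from red in H to blue in L, while GstO3, GstZ1 and GstD10 change between the H lines.

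GstO3 had the largest difference between lines of a group. H line 1 gave 4298.2 and 4250.5 in females and 3053.8 and 4541.1 in males, while H line 2 gave 627.1 and 1106.4 in females and 1040.5 and 1102.8 in males. The C arrays lay between 3003.2 and 3964.9 and the L arrays between 1576.7 and 2395.5. H line 1 thus overlapped C, and H line 2 lay below all other lines, L included. H line 1 lay above H line 2 by 2.08 (adjusted p = 8.36e-06). The mean of H and L differed by 0.05 (SE 0.12, adjusted p = 0.838), which holds opposite values, -0.99 (adjusted p = 0.00119) without H line 1 and 1.09 (adjusted p = 0.000209) without H line 2.

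Delta genes next to each other differed between the H lines in opposite directions. GstD1 was lower in H line 2 (8043.4 to 10709.2) than in H line 1 (11781.1 to 13856.8), by 0.46 as line 1 less line 2 (adjusted p = 0.00392). GstD2, GstD3, GstD9 and GstD10 were higher in H line 2, with differences of line 1 less line 2 of -1.38, -0.66, -1.03 and -1.39 (adjusted p = 0.0227, 0.000605, 0.000397 and 0.0381). For GstD2 and GstD10 the male replicate 2 of H line 2 was the highest of all arrays, at 1350.0 and 413.1. The C lines differed in the same directions for GstD1 (0.53, adjusted p = 0.00131) and GstD3 (-0.65, adjusted p = 0.000712). C line 2 gave 7725.4 to 9062.7 for GstD1 against 10891.0 to 12929.3 in C line 1, and 753.2 to 1340.4 for GstD3 against 577.6 to 727.9. For the L lines neither gene was called (0.12 and 0.09).

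GstZ1 differed by 1.11 between H line 1 and H line 2 (adjusted p = 0.000494) and by -0.60 between the C lines (adjusted p = 0.0266), so that line 2 was low in H and high in C. GstE1 (0.53, adjusted p = 0.0178) and GstE6 (-0.49, adjusted p = 0.0336) were the epsilon genes called between the H lines. Between the L lines, GstD9 and GstE5 (-0.47, adjusted p = 0.0306) were called. Between the C lines, GstT4 (0.37, adjusted p = 0.0240) completed the calls.

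**Figure D4:**
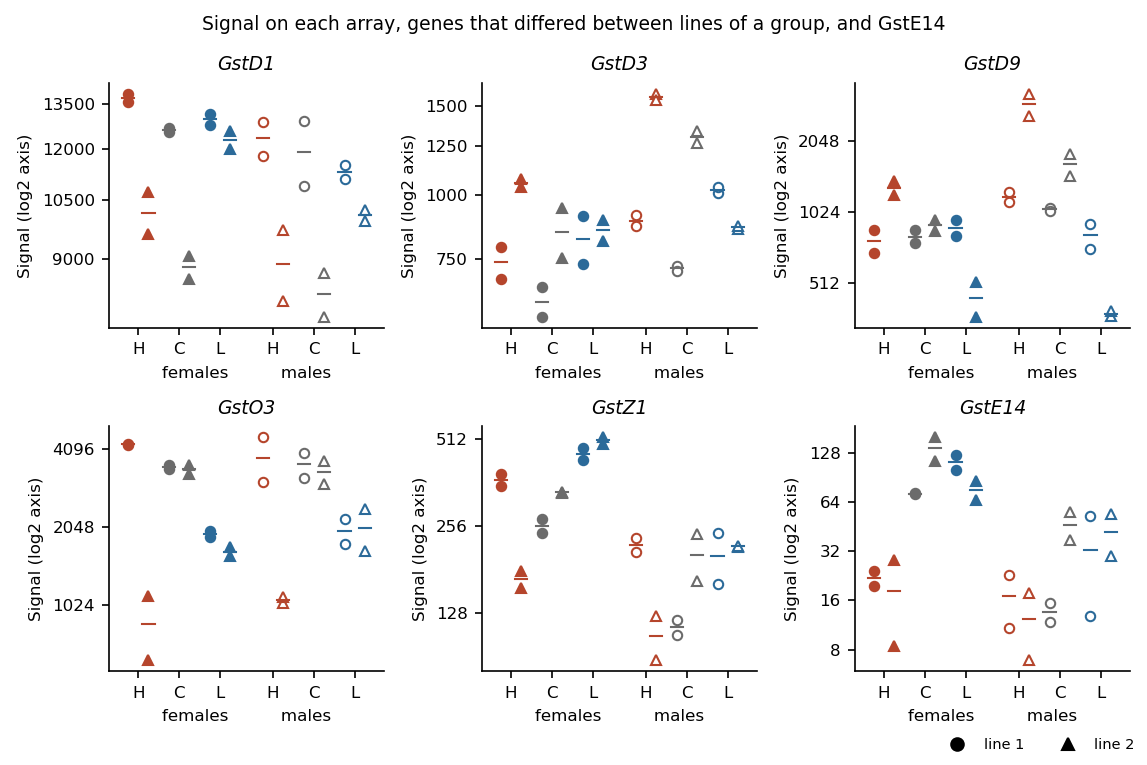
Signal on each of the 24 arrays for 5 genes that differed between lines of a group and for GstE14, on a log2 axis, with symbols as in the plot of genes higher in H. The 2 lines of H stand apart within each sex for GstD1, GstD3, GstD9, GstO3 and GstZ1, and for GstE14 all H females lie below the other females.

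When the spread between lines entered the error, fewer genes were called. With line as a random block, the same correlation (0.176) was used for all probe sets, so it does not follow the line spread of each gene. In limma 6 of 31 genes were then called between H and L, beside 3.48% of all probe sets, all higher in H. These were GstD7 (adjusted p = 0.00237), GstD9 (0.0151), GstE1 (0.00880), GstE3 (0.00974), GstE5 (4.2e-05) and GstE7 (0.00192). For GstD9, line 1 less line 2 was -1.03 in H and 1.05 in L, so its own line spread was large. With the 6 line means as the only samples, 0 genes were called, 9 of 31 had an unadjusted p under 0.05 (beside 9.62% of all probe sets), and the smallest adjusted p was 0.254, for GstE3.

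Most transcripts differed between males and females, and 17 of 31 GST genes did (54.8%, beside 69.5% of all probe sets). Of these, 8 were higher in males (beside 25.6%) and 9 in females (beside 43.9%). The genes higher in males were delta and epsilon genes only: GstD3, GstD5, GstD9, GstE2, GstE3, GstE5, GstE7 and GstE9. Those higher in females were GstE1, GstE6, GstE11, GstE13, GstO1, GstT1, GstT2, GstT3 and GstZ1. On the log2 scale, males less females, the median was 0.34 for the delta genes and 0.16 for all 31 genes, beside -0.19 for all probe sets. With quantile normalization these medians became -0.03 and -0.04, beside -0.25, so the sign of the delta median depends on the scaling. The counts were then 8 and 7.

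Among the genes higher in males, GstD5 had the largest difference. Its 12 female arrays had a lowest, median and highest Signal of 4.8, 35.65 and 170.4, and its 12 male arrays of 109.4, 218.45 and 323.7. The sexes overlapped only through the females of C line 2, at 170.4 and 123.7. The difference was 2.46 (SE 0.29, adjusted p = 1.18e-06), and 1.41 with log2(Signal + 50). GstD5 passed the filter through the males, since 10 of its 12 female arrays lay below 75, so the size of its difference is uncertain. GstE3 was higher in males by 0.80 (SE 0.09, adjusted p = 8.81e-07), with 1578.9, 2107.5 and 3228.5 in females and 2875.2, 3710.75 and 5935.4 in males, and GstE2 by 0.57 (SE 0.09, adjusted p = 1.90e-05), with 222.9, 276.65 and 453.1 in females and 307.8, 437.4 and 562.7 in males. For both genes the sexes overlapped.

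GstZ1 was the gene most biased to females. Its lowest, median and highest values were 155.5, 343.1 and 516.8 in females and 87.7, 185.45 and 240.7 in males, a difference of -0.96 (SE 0.08, adjusted p = 3.87e-08), with overlap through the females of H line 2. GstT2 was lower in males by -0.69 (SE 0.05, adjusted p = 3.26e-09). The lowest, median and highest values were 632.0, 736.3 and 818.8 in females and 387.1, 444.25 and 617.8 in males, with no overlap. GstT1 was the other gene with no overlap, with females at 1289.9 to 1916.3 and males at 1014.1 to 1245.6. Females lay above males without overlap for 2 of 31 GST genes (6.45%), beside 28.7% of all probe sets, and the reverse held for 0, beside 17.1%. GstE13 was lower in males by -0.57 (SE 0.10, adjusted p = 8.61e-05), at 774.1, 962.0 and 1150.8 in females and 455.7, 615.4 and 855.9 in males, and just missed the call without C line 2 (adjusted p = 0.00101). The neighbours GstE1 and GstE2 differed between the sexes in opposite directions, at -0.52 (SE 0.07) and 0.57.

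**Figure D5:**
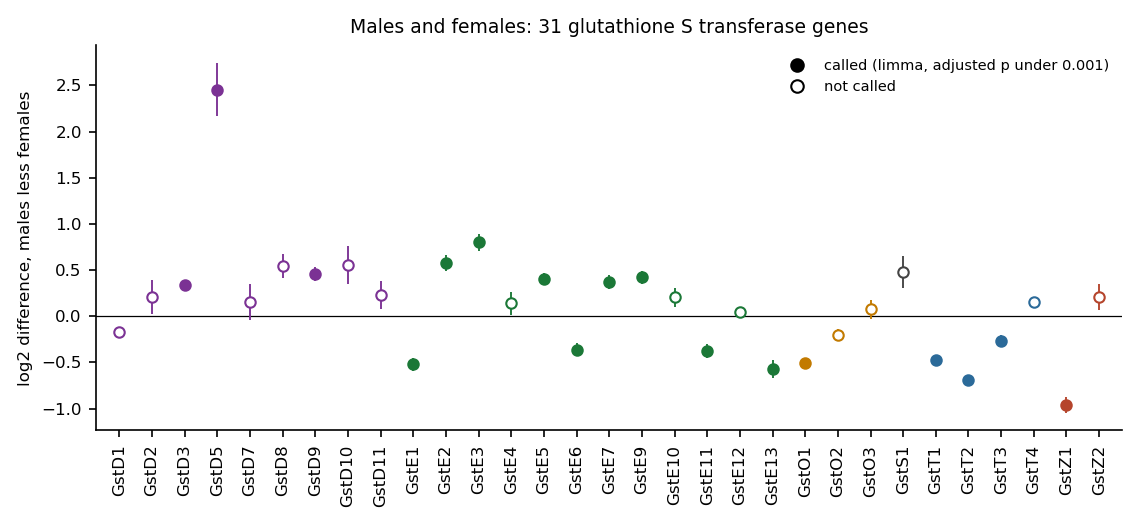
Log2 difference of males and females for each of the 31 GST genes, averaged over the 6 lines, with the SE of the limma fit over 24 arrays, coloured by class and filled where called at an adjusted p under 0.001. GstD5 stands highest, and 3 of 4 theta genes and GstZ1 are called lower in males.

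Other genes of glutathione and redox metabolism were counted in the same way. Of 33 listed genes 26 were named here and tested, and 1 was called higher in H, 1 lower and 24 did not pass, with a median log2 difference of 0.08, where 15.7% of all probe sets were called. The gene called higher was Gtpx, of the glutathione peroxidase family (0.31, SE 0.06, adjusted p = 0.00284), with a mean Signal of 8035 ± 996 in H, 6367 ± 504 in C and 6464 ± 245 in L (SD, n = 8). Prx6c, a peroxiredoxin, was lower in H (-0.69, SE 0.13, adjusted p = 0.00214). For Prx6c, line 1 less line 2 was larger in size, at 1.91 in L (limma, adjusted p = 3.23e-05) and 0.71 in H (adjusted p = 0.0359). Prx6c and Mgstl, a membrane-bound GST, were the listed genes with a line effect, and Mgstl was lowest in C (5180 ± 622, against 6891 ± 1320 in H and 7279 ± 1231 in L, SD, n = 8). Gclc, the catalytic subunit of the first enzyme of glutathione synthesis, had an estimate of 0.19 (adjusted p = 0.126). Among the regulators, the estimates of H and L were 0.17 for cnc, 0.13 for Keap1, 0.03 for maf-S and -0.20 for foxo, a stress-response factor. None passed between H and L (adjusted p = 0.430, 0.531, 0.770 and 0.116). The H lines differed for cnc, with line 1 less line 2 at -0.74 (limma, adjusted p = 0.0354). They were not called for Keap1, maf-S or foxo (adjusted p = 0.927, 0.212 and 0.868). Between H and C, cnc had an estimate of 0.41 and did not pass (adjusted p = 0.0621).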

How the data were processed

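Transcript abundance had been measured by the authors on Affymetrix Drosophila GeneChip 2.0 arrays, 1 array per sample. The deposited intensity values are the Signal of Microarray Suite, which the authors obtained from matched and mismatched probe pairs and scaled array by array. No genome build is named in the sources used here. All 24 columns were matched to their samples by name, and 0 columns were left unused. The number of arrays limits the precision, and counts of reads do not apply.

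Gene names come from the platform's annotation, with symbols updated by Entrez identifier through the RefSeq gene table (13646 probe sets with 1 symbol, 402 with several and 4721 with none here). Chromosome arms and gene neighbours come from RefSeq, Release 6 plus ISO1 MT. A probe set entered the tests where its median Signal over the 24 arrays reached 75, and it was tested on log2(Signal), with no pseudocount, by lmFit and eBayes of limma with terms for line, sex and line by sex and 12 residual degrees of freedom. Classes of genes were described by counts and medians, with no test of their own. The genes chosen for full values were those with a line effect, with calls between H and L of at least 0.5 on the log2 scale or with calls of the difference between the sexes. To these were added GstE1, GstE5 and GstS1, the 3 largest sex differences each way and the 2 genes of highest mean Signal. For some of these genes the values of a group or of single arrays are not printed. The other genes called between H and L, GstE14 and the lines of GstD2, GstD10, GstE6 and GstT4 were described after their values were seen. The genes, lists and tests were chosen with earlier results of these data known.

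The alternatives were the factorial analysis of linear Signal of the methods, log2(Signal + 50), quantile normalization, centring of each sex on its median, filters at 50 and 150 or none, a block for the replicate number, the second probe set of a gene, line as a random block, line means, and leaving out each array and each line. The fit was tested on simulated data. Promoters were not analysed here. The fits were made in R 4.3.3 with limma 3.58.1. Counts and plots were made in Python 3.11.15 with NumPy 2.4.6, pandas 2.3.3 and matplotlib 3.10.9.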

Additional observations from a re-analysis of the deposited data

Results flagged for a closer look

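Among 96 groups of 4 arrays (a selection group and sex for each gene chosen for full values), 2 held a sample far from the others, and chance gives about 1 in 20 groups. For GstE3 in H females, the sample of H line 2 replicate 1 was low at 2439.0, where the other samples lay between 3136.1 and 3228.5. For GstE7 in H females, the sample of H line 2 replicate 2 was high at 1731.1, where the others lay between 1442.3 and 1480.2. The difference of H and L kept its call for both genes with any array left out (0.56 to 0.73 for GstE3 and 0.61 to 0.81 for GstE7, lines left out included).

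The difference of H and L of GstD9 was 1.06 larger in males than in females on the log2 scale, by the contrast of the sexes in limma (adjusted p = 0.0234). The call rests on arrays and lines named in the report.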

How the results depend on the processing

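The number of GST genes called between H and L was 10 to 14 over the settings of scale, normalization, filter, replicate block and probe set, and 9 to 17 with an array or a line left out. With line as a random block the counts were 6 for H and L, 2 for H and C and 2 for C and L (beside 3.48%, 1.6% and 2.2% of all probe sets), and with the line means as the samples 0 for each, where 9, 5 and 6 genes had an unadjusted p under 0.05 in limma. With an array or line left out, H and C gave 5 to 9 (5 without C line 2 or without C line 2 male replicate 1), C and L 7 to 10, females 5 to 9, males 4 to 12, the sexes 12 to 17, the line effect 5 to 9, the H lines 6 to 9, the L lines 1 to 2, the C lines 2 to 6, the sex difference of H and L 0 to 1 and the line by sex interaction 0 to 0. The sex difference of H and L was called for 2 genes on linear Signal (GstD9 and GstZ1) and for 0 with no filter. Between the L lines 1 gene was called on linear Signal, with quantile normalization, with median centring and with no filter, and between the C lines 2 with no filter.

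The estimate of H and L for GstD5, never called, was -0.21 on linear Signal and -0.074 with log2(Signal + 50). With an array or line left out it ranged from -0.44 to 0.54 for GstD5, from -0.29 to 0.16 for GstD1, from -0.13 to 0.53 for GstD3, from -0.060 to 0.15 for GstE13 and from -0.99 to 1.09 for GstO3. GstD7, GstD9, GstE1, GstE3, GstE5 and GstE7 kept their call with each array and each line left out. GstD3 lost its call with median centring, no filter and the replicate block, GstO2 with median centring, and GstE4 and GstT1 with no filter. GstE2 and GstD10 were called with log2(Signal + 50).

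Samples of the same replicate number did not deviate together over the series as a whole (median correlation -0.01 over 66 pairs of line and sex, from -0.26 to 0.26). The correlation was over 0.1 for 6 pairs, and this summary cannot exclude that the numbers pair samples within some lines. With the replicate number as a block, 11 genes were called between H and L, 8 between H and C, 10 between C and L, 8 in females, 6 in males, 16 between the sexes, 8 for line, and 8, 3 and 5 between the H, L and C lines. Array number and the low Signal of GstD4, GstD6, GstE14, in females GstD5 and, in L, GstD7 limit precision.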
